A study of Mus musculus with 6 samples.

Results

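The genes described here are the core of the Hedgehog pathway in mouse skin: the ligand Shh, the receptors Ptch1 and Smo, the Gli regulator Sufu, the transcription factors Gli1, Gli2 and Gli3, and the ligand-binding inhibitor Hhip. They were chosen by symbol, and all 8 were found among the 23412 genes of the deposited table. RNA came from the ventral dermis of 6 mice aged 3 weeks, on a mixed CD1 and C57BL/6 background. The 3 controls were HoxB6CreERT/+; R26-YFP/+ littermates. The 3 mutants carried the same Cre and reporter alleles plus CatnbΔex3/+, an allele whose recombination gives a stabilised beta-catenin ("activated beta-catenin"). All 6 mice had been exposed to tamoxifen on embryonic day 16.5 through oral dosing of the mother, so the controls share the drug and the recombinase. The tamoxifen-dependent Cre is expressed from HoxB6 sequences, and the RNA is that of the whole dermis, so cells without recombination contribute to every mutant value. The comparison asks how this pathway stood in dermis whose fibroblasts carried the activated allele from before birth, in a study of skin fibrosis by its title.

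Hedgehog ligands are secreted proteins that bind Patched, a membrane protein that otherwise holds Smoothened inactive. Active Smoothened acts at the primary cilium, where Sufu is released from the Gli proteins. Gli2 and Gli3 then act as activators instead of being processed to repressors, and Gli1, Ptch1 and Hhip are switched on as target genes. Gli1 and Ptch1 transcripts are therefore widely used as readouts of the signal. In skin, Shh is made by epithelial cells of the growing hair follicle and is received by neighbouring epithelium and by the dermal papilla, and the same pathway interacts with Wnt signalling in follicle growth.

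The promoters of the 2 receptors and of Hhip are shown because these genes, like Shh, each had their lowest level in control 2. Promoters were listed in RefSeq (GRCm38.p6) for 6 of the 8 genes: Ptch1, Smo, Sufu, Gli2, Gli3 and Hhip. Each line gives the 250 bases before the RefSeq start, read 5′ to 3′ on the strand of the gene, with the letters CCACCC or its reverse complement GGGTGG in capitals.
Ptch1: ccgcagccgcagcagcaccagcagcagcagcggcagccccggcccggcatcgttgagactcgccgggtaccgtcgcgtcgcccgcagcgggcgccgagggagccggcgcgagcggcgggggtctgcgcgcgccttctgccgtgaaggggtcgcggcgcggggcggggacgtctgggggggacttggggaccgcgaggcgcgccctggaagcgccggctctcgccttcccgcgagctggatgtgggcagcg
Smo: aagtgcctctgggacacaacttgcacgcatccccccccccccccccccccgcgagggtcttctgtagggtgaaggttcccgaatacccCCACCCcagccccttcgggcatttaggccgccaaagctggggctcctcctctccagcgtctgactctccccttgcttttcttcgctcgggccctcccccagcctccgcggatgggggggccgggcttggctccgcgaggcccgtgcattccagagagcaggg
Hhip: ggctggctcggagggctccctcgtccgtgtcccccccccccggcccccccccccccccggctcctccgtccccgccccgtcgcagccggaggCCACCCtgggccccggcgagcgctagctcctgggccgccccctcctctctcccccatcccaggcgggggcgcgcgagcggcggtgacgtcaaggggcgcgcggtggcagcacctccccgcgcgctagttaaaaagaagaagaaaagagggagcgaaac
The Ptch1 window is chr13:63565736-63565985 (minus strand), and it lies within the longer Ptch1 gene of GENCODE, which begins upstream. The Smo window is chr6:29735247-29735496 (plus strand) and the Hhip window chr8:80058009-80058258 (minus strand), and each lies just outside its own gene in GENCODE. The letters GACCACCCA, a binding sequence of Gli proteins, were searched on both strands of these windows and found in 0 of the 6, and in 0.225% of all 32851 listed promoters over the same length. The shorter CCACCC, which is contained in that sequence, was present in 4 of the 6 (Smo, Gli2, Gli3 and Hhip) and in 28.1% of all promoters. ATCAAAG, a sequence bound by TCF/LEF, the DNA-binding partners of beta-catenin, was present in 0 of the 6 and in 3.21% of all promoters. The windows of Ptch1 and Hhip were rich in G and C, with 78.4% and 76.0% against a median of 52.4% for all promoters. Those of Smo, Gli2 and Gli3 had 68.4%, 67.2% and 72.8%, and that of Sufu 54.0%. The 28.1% with CCACCC is over all promoters, not over promoters of like G and C content.

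Values were deposited as FPKM, which corrects fragments for gene length and library depth, so levels can be set side by side across genes. Reads assigned to genes, worked back from the steps of these values, ran from 7799565 to 9675359 in controls and from 11839144 to 13478910 in mutants. Ctnnb1, the gene of beta-catenin, measured 182 ± 19.4 FPKM (SD, n = 3) in the control group against 165 ± 28.7 (SD, n = 3) in the mutant group, and a value for the whole gene cannot show the loss of a single exon. Controls 1 and 2 were female by Xist (55.5 and 66.2 FPKM) and control 3 and all mutants expressed Y-linked genes. Mutant 2 stood apart in having both Y-linked RNA and 6.47 FPKM of Xist. Without it the members' log2 differences lay between -0.08 and 0.37, and none was called. Fibroblast markers were present in every library, as were markers of hair matrix, basal keratinocytes, vessels, fat, nerve and leukocytes, and no marker in these lists was at 0 in any library.

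None of the 8 Hedgehog genes was called different between mutant and control dermis (limma on log2(FPKM + 1), Benjamini-Hochberg adjusted p from 0.637 to 0.972). All 8 passed the floor of a mean of 1 FPKM and were tested with 12560 genes in all. Of these 12560 genes, 0.143% were called higher and 0% lower in mutants, so counts of 0 higher and 0 lower among 8 members are near the background. Differences were positive for Shh, Ptch1, Smo, Gli1 and Hhip and negative for Sufu, Gli2 and Gli3, with a median of 0.18 against 0.09 for all tested genes. No gene of the 8 had all mutants on one side of all controls, an arrangement seen upward in 13.0% and downward in 2.65% of tested genes. On the log2(FPKM + 1) scale the 95% intervals reached at most 0.78, for Gli1, and at least -0.44, for Sufu.

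**Figure D1:**
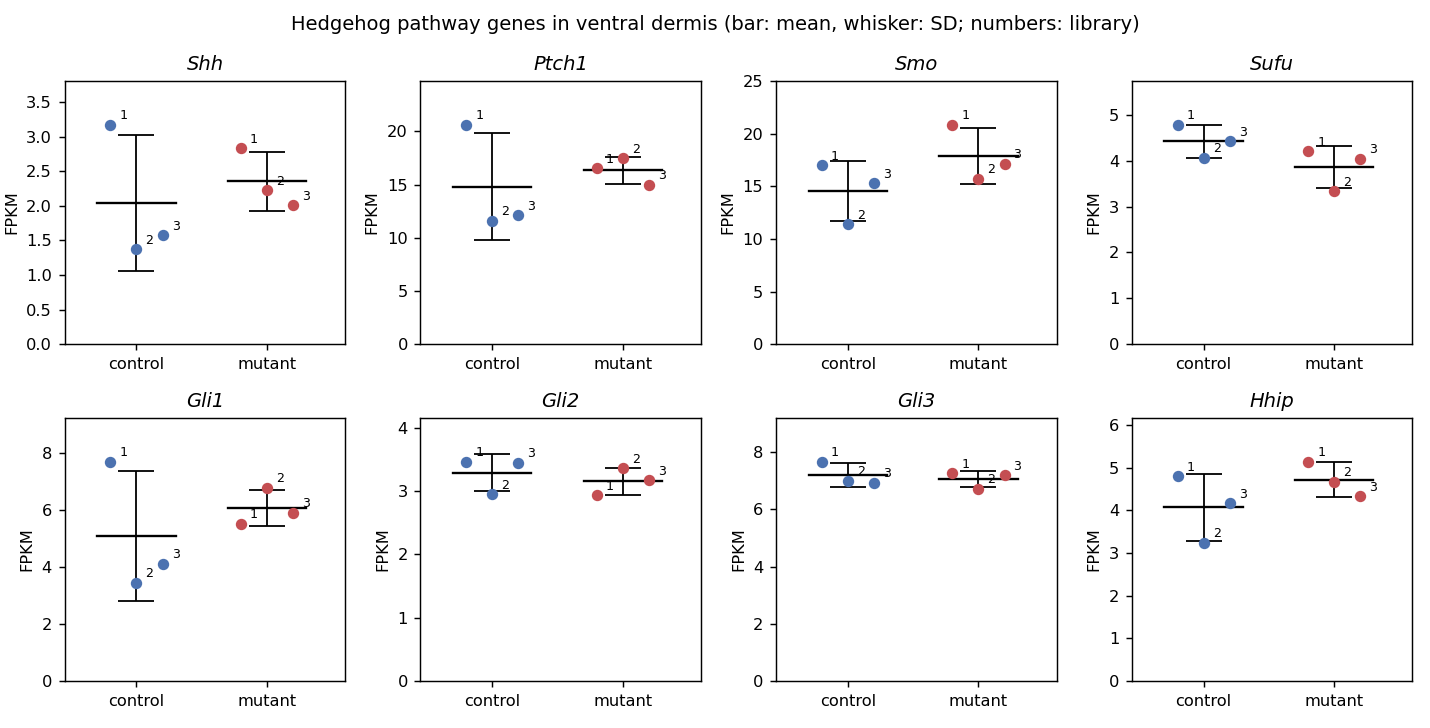
FPKM of the 8 Hedgehog pathway genes in each library (y axes start at 0), controls in blue and mutants in red, with the library number beside each point. Horizontal bars are group means and whiskers are SD over 3 mice. Control 1 stands above controls 2 and 3 for Shh, Ptch1 and Gli1, while Gli2 and Gli3 stay within a narrow band.

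Shh encodes Sonic hedgehog, the ligand of the hair follicle (chr5:28456815-28467256, minus strand, GRCm38). Controls 1 to 3 had 3.17, 1.37 and 1.58 FPKM, and mutants 1 to 3 had 2.84, 2.23 and 2.01 FPKM. Control 1 was the highest of the 6 libraries and controls 2 and 3 were the lowest, so the groups overlapped. The group means were 2.04 ± 0.98 and 2.36 ± 0.43 FPKM (SD, n = 3 each), a log2 difference of 0.18 (SE 0.21, 95% interval -0.29 to 0.65, adjusted p = 0.841 with limma). Shh was the lowest of the 8 genes per length and rested on 58 to 148 reads per library. Counting error alone gives an SD of 13.1% at the lowest of these counts, against a spread of 48.2% among the controls. An antisense RNA gene on the other strand, 9530036O11Rik, overlaps Shh over 8983 bases and had at most 9 reads in any library. Gm26894, also on the other strand, overlaps Shh over 883 bases and has no row among the deposited values. Whether the counting used strand is not given in the sources used here, and the effect of these overlaps on the Shh values was not tested.

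Shh RNA in skin comes from follicle epithelium, and the level of follicle genes in these libraries is given beside it. The 12 hair matrix and inner sheath markers summed to between 4820 and 4850 FPKM in controls and between 2768 and 5436 in mutants. All 12 markers had negative log2 differences, with a median of -0.32, and none was called. In 3 of the 12 every mutant lay below every control, beside 2.65% of all tested genes. The 8 basal keratinocyte markers summed to 1463 to 1673 FPKM in controls and 1372 to 1836 in mutants. The 10 dermal papilla markers summed to 38.2 to 47.9 FPKM in controls and 46.0 to 56.3 in mutants. In such bulk RNA, a different number of follicle cells and a different amount of RNA per cell cannot be told apart, and the part of these markers in the Shh values was not tested.

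Ptch1 encodes the main Hedgehog receptor and is itself a target of the signal (chr13:63508328-63573598, minus strand). Its levels in controls 1 to 3 were 20.6, 11.6 and 12.2 FPKM, followed by 16.5, 17.5 and 15.0 FPKM in mutants 1 to 3. As for Shh, control 1 exceeded every mutant, and every mutant exceeded controls 2 and 3. Means were 14.8 ± 5.04 and 16.3 ± 1.25 FPKM (SD, n = 3 each), with a log2 difference of 0.18 (SE 0.21, 95% interval -0.29 to 0.64, adjusted p = 0.846 with limma). With 782 to 1606 reads per library, counting error was at most 3.58%, while the controls spread by 34.1% of their mean and the mutants by 7.62%.

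Smo encodes Smoothened, the membrane protein that passes the signal into the cell (chr6:29735503-29761365, plus strand). It stood at 17.0, 11.4 and 15.3 FPKM in controls and at 20.8, 15.7 and 17.1 FPKM in mutants 1 to 3. The lowest library was control 2 and the highest mutant 1, with the remaining values between 15.3 and 17.1 FPKM. Smo had the largest positive difference of the 8 genes, 0.29 (SE 0.18, 95% interval -0.11 to 0.69, adjusted p = 0.637 with limma). The library-wide scale, given by median-of-ratios factors, was likewise lowest in control 2 (0.885) and highest in mutant 1 (1.18). After scaling by these factors the differences were 0.17 for Smo, 0.10 for Shh, 0.07 for Ptch1, 0.18 for Gli1 and 0.09 for Hhip, and -0.26, -0.13 and -0.13 for Sufu, Gli2 and Gli3. The same scaling moved the median of all tested genes from 0.09 to -0.01.

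Hhip encodes a membrane protein that binds Hedgehog ligands and limits their range, and it is also a target of the signal (chr8:79965851-80058006, minus strand). Controls were at 4.80, 3.24 and 4.16 FPKM and mutants at 5.14, 4.67 and 4.32 FPKM. Control 2 lay below the other 5 libraries, which overlapped. The log2 difference was 0.18 (SE 0.14, 95% interval -0.14 to 0.50, adjusted p = 0.733 with limma), from means of 4.07 ± 0.79 and 4.71 ± 0.41 FPKM (SD, n = 3 each).

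Sufu encodes the protein that holds Gli factors in the cytoplasm (chr19:46396896-46488804, plus strand). It was the only 1 of the 8 with a negative difference of more than 0.1 on the log2 scale. Controls stood at 4.78, 4.06 and 4.42 FPKM and mutants at 4.20, 3.34 and 4.04 FPKM. Mutants 2 and 3 lay below all controls and mutant 1 between controls 2 and 3. The difference was -0.16 (SE 0.12, 95% interval -0.44 to 0.12, adjusted p = 0.731 with limma), on 152 to 203 reads per library. It was -0.08 without mutant 2, and -0.26 and -0.29 after median-of-ratios and quantile scaling, with unadjusted p of 0.00809 and 0.00487 and adjusted p of 0.178 and 0.155 (limma).

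The 3 Gli genes encode zinc finger transcription factors that bind the same DNA sequence, and they behaved unequally across the libraries. Gli1, an activator whose transcription depends on the signal (chr10:127329882-127341974, minus strand), was at 7.68, 3.44 and 4.11 FPKM in controls and at 5.51, 6.77 and 5.89 FPKM in mutants 1 to 3. Control 1 was again above every mutant, and controls 2 and 3 below every mutant. Its means were 5.08 ± 2.28 and 6.06 ± 0.64 FPKM (SD, n = 3 each), with a log2 difference of 0.27 (SE 0.22, 95% interval -0.23 to 0.78, adjusted p = 0.751 with limma). The 3′ end of Gli1 overlaps that of Arhgap9, a gene of leukocytes on the other strand, by 62 bases. Arhgap9 had 2.21 ± 0.63 FPKM in controls against 3.23 ± 0.45 in mutants (SD, n = 3 each) on 45 to 129 reads, against 200 to 529 for Gli1. GENCODE also lists an antisense gene, Gm47200, over 9584 bases of Gli1, and it has no row among the deposited values. Whether the counting used strand is not given in the sources used here, so reads of Gli1 and of genes on its other strand cannot be told apart.

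Gli2, the main transducer of the activating signal (chr1:118834132-119053619, minus strand), was at 3.47, 2.95 and 3.45 FPKM in controls and 2.94, 3.37 and 3.17 FPKM in mutants. All 6 values fell within a 1.18-fold range and the groups overlapped fully. Gli3, the main source of Gli repressor (chr13:15463235-15730026, plus strand), was at 7.68, 7.0 and 6.93 FPKM in controls and 7.27, 6.73 and 7.20 FPKM in mutants, a 1.14-fold range. By contrast, the highest and lowest libraries differed 2.23-fold for Gli1, 2.31-fold for Shh and 1.77-fold for Ptch1. The log2 differences were -0.04 for Gli2 (95% interval -0.30 to 0.22) and -0.02 for Gli3 (95% interval -0.28 to 0.23), with adjusted p of 0.949 and 0.972 (limma). These intervals reach further down than up.

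**Figure D2:**
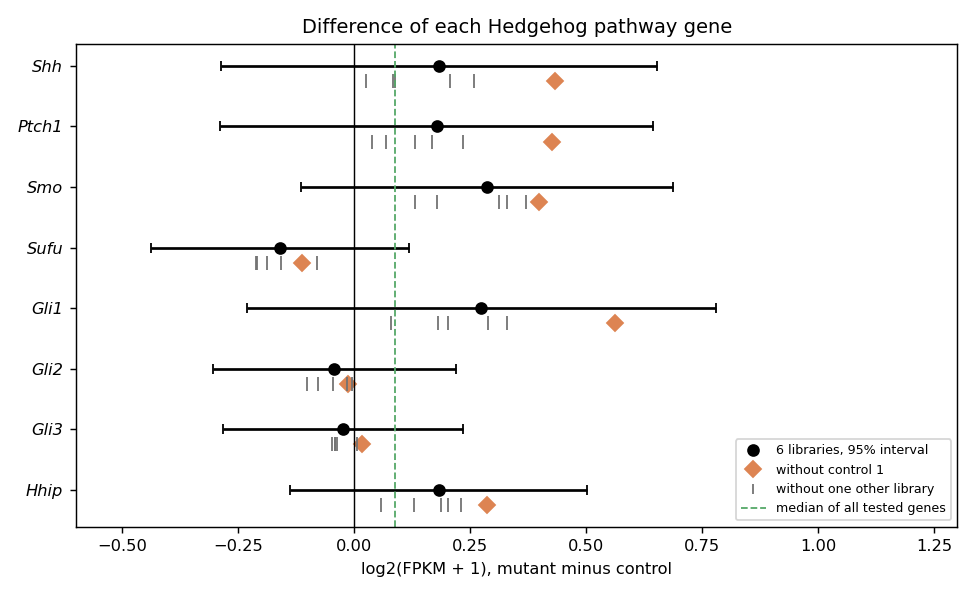
Difference of each gene between mutant and control means on the log2(FPKM + 1) scale (x axis), with 95% intervals from limma over 6 libraries. Diamonds below each gene are the difference without control 1, ticks are those without one other library, and the dashed line is the median of all tested genes, 0.09. Without control 1 the difference moved to 0.43 for Shh, 0.43 for Ptch1 and 0.56 for Gli1.

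The results for the ligand and the readout genes rested on single control mice. Without control 1 the log2 differences were 0.43 for Shh, 0.43 for Ptch1 and 0.56 for Gli1, with unadjusted p of 0.0226, 0.0355 and 0.00519 and adjusted p of 0.326, 0.377 and 0.177 (limma). Without control 2 they were 0.03, 0.04 and 0.08, and those of Smo and Hhip were 0.13 and 0.06. No gene of the 8 was called in either case. Controls 1 and 2, the highest and the lowest library for Gli1, were both female. With library sex as a covariate, which sets the mutants against control 3 alone, the differences were 0.37 for Shh, 0.40 for Ptch1 and 0.46 for Gli1, and none was called.

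**Figure D3:**
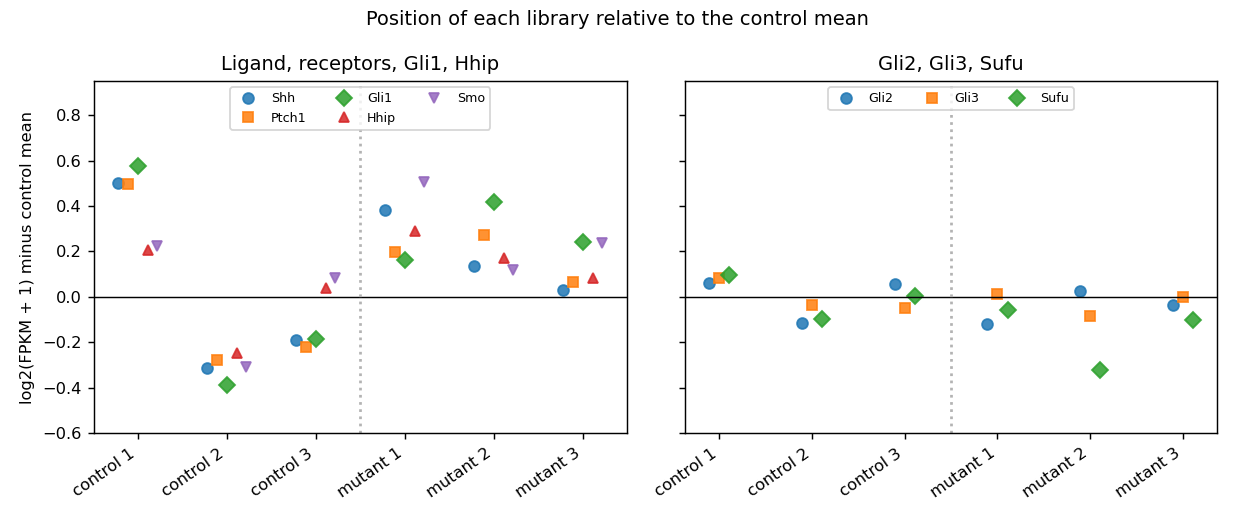
Each gene's log2(FPKM + 1) in each library minus its control mean (y axis), for the ligand, receptors, Gli1 and Hhip on the left and for Gli2, Gli3 and Sufu on the right. Control 1 lies above and control 2 below the control mean for all 5 genes on the left, while the genes on the right lie within 0.13 of 0 except Sufu in mutant 2.

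Across the 6 libraries Shh, Ptch1 and Gli1 had similar orders. Ptch1 and Gli1 had a Pearson r of 0.97 and a Spearman rho of 0.94 (log2(FPKM + 1), n = 6, exact permutation p = 0.00556 and 0.0167, two-sided). For Shh and Ptch1, r was 0.94 and rho 0.94 (n = 6, exact permutation p = 0.0111 and 0.0167). Shh and Gli1 had an r of 0.86 and a rho of 0.83 (n = 6, exact permutation p = 0.0333 and 0.0583). Hhip, also a target, had an r of 0.80 and a rho of 0.83 with Ptch1 (exact permutation p = 0.0333 and 0.0583). With Gli1 it had an r of 0.80 and a rho of 0.66 (exact permutation p = 0.0583 and 0.175). Without the 2 libraries farthest from the median of Ptch1 or of Gli1, these r of Hhip were 0.77 and -0.09. Of the 28 pairs of members, none kept an adjusted p under the 0.05 threshold, and the lowest was 0.117 for Pearson's r and 0.156 for Spearman's rho (exact permutation, n = 6). Without controls 1 and 2, the farthest from the median of the first gene, r was 0.92 for Ptch1 with Gli1, 0.83 for Shh with Ptch1 and 0.58 for Shh with Gli1. After median-of-ratios scaling, which takes out a shift common to all genes, the 3 values over 6 libraries were 0.96, 0.87 and 0.83. The 4 libraries behind the values without controls 1 and 2 are also the 4 with Y-linked RNA, so these values are those within that sex, and the 2 female libraries are too few for one.

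The other members were set against Shh in the same way, and no test compared one r with another. The r was 0.19 for Gli2, 0.66 for Gli3 and 0.24 for Sufu, and after scaling it was -0.11, -0.14 and -0.18 (n = 6, exact permutation p of 0.692, 0.15 and 0.681 before scaling). Smo and Hhip had r with Shh of 0.79 and 0.88, or 0.71 and 0.78 after scaling (n = 6, exact permutation p of 0.0528 and 0.0139 before scaling). These values describe 6 libraries that also share differences in depth and tissue content.

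Setting the genes against each other within a library gave ratios that did not separate the groups. Gli1 relative to Gli3 was 1.0, 0.492 and 0.593 in controls and 0.759, 1.01 and 0.818 in mutants (ratio of FPKM, exact permutation p = 0.3, two-sided, n = 3 each). Gli1 relative to Gli2 was 2.22, 1.17 and 1.19 in controls and 1.87, 2.01 and 1.86 in mutants (exact permutation p = 0.4, n = 3 each). Ptch1 relative to Shh ranged from 6.50 to 8.48 in controls and from 5.84 to 7.83 in mutants (exact permutation p = 0.6, n = 3 each). With 3 against 3 libraries the smallest p of such a test is 0.1.

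By level per length, the receptors led in both groups. In controls the order of mean FPKM was Ptch1 (14.8), Smo (14.6), Gli3 (7.20), Gli1 (5.08), Sufu (4.42), Hhip (4.07), Gli2 (3.29) and Shh (2.04). Ptch1 and Smo did not differ beyond their spread, nor did Gli1, Sufu and Hhip among themselves. In mutants Smo (17.9 ± 2.64) stood before Ptch1 (16.3 ± 1.25) and Hhip (4.71 ± 0.41) before Sufu (3.86 ± 0.46, SD, n = 3), while the other positions were the same. Each of these exchanged pairs lay within its spread in controls.

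The genes most similar to the members across libraries were taken from 11734 tested genes with ordinary symbols, by Pearson r of log2(FPKM + 1) over 6 libraries. For Shh they were Akap7, which encodes an anchor of protein kinase A (r = 0.99), the mitotic phosphatase gene Cdc25c (0.99) and Mmaa (0.98), and Ptch1 ranked 51st, Hhip 256th and Gli1 331st. For Ptch1 they were Kbtbd3 (0.99), the dynactin subunit gene Dctn3 (0.98) and Isca2 (0.98), with Gli1 at rank 7 and Shh at rank 13. For Gli1 they were Lgr6, which encodes an R-spondin receptor found on follicle stem cells (0.99), the integrin gene Itgb8 (0.98) and H1fx (0.97), with Ptch1 at rank 5 and Shh at rank 102. None of these neighbours was called between groups (adjusted p from 0.723 to 0.952 with limma). They were picked for likeness to uncalled members over the same 6 libraries, so this is no separate result. How high r runs by chance among 11734 genes over 6 libraries was not tested. Reads per library were as few as 38 to 63 for Kbtbd3 and 23 to 68 for H1fx. Counting error alone gives an SD of 16.2% and 20.9% at the lowest of these counts.

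The wider pathway was read from 5 lists with 46 genes, of which 39 passed the floor. None was called higher and none lower (limma, adjusted p from 0.0845 to 0.995), beside 0.143% and 0% of all tested genes. At an unadjusted p under 0.05 there were 4 of 39, where all tested genes had 11.3%. Of the 4, Cdon, Gas1 and Disp1 were higher in mutants, beside 10.5% of all tested genes, and Scube2 was lower, beside 0.748%. In 6 of the 39 every mutant lay above every control and in 2 every mutant below, beside the 13.0% and 2.65% of all tested genes. The median log2 difference of the 39 was 0.05, against 0.09 over all tested genes.

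**Figure D4:**
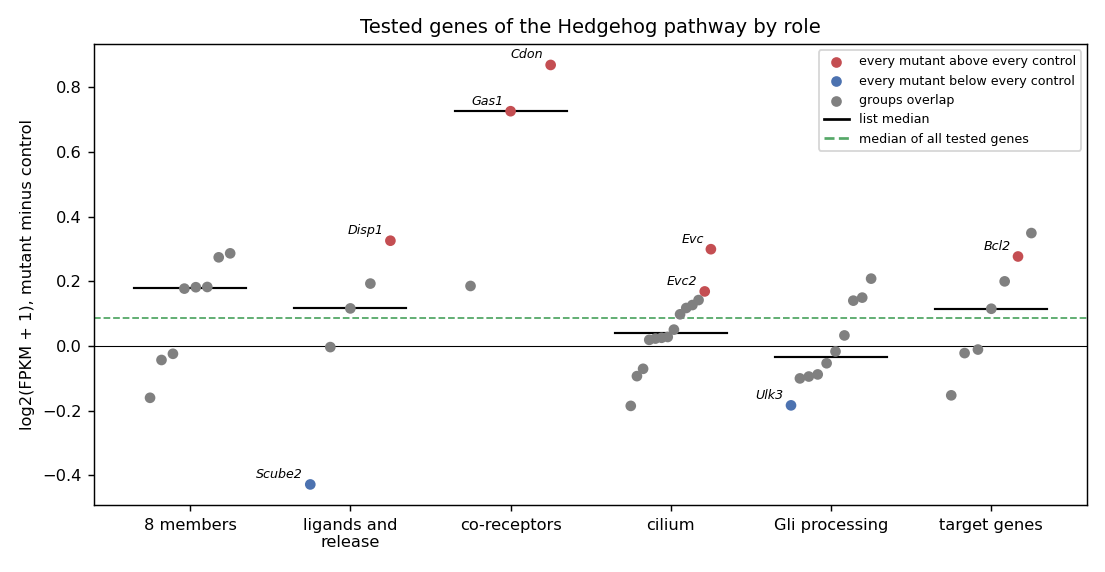
Log2(FPKM + 1) difference, mutant minus control (y axis), of the 8 members and of 39 other tested pathway genes grouped by role, each point a gene. Red points are genes with every mutant above every control and blue points the reverse, black bars are list medians, and the dashed line is the median of all tested genes. Cdon and Gas1 stand highest at 0.87 and 0.73, and Scube2 lowest at -0.43.

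The largest differences of the wider pathway were in 2 co-receptors, which bind Hedgehog ligands at the cell surface beside Patched. Cdon (chr9:35421128-35507652, plus strand) had 4.25, 3.23 and 5.34 FPKM in controls against 7.99, 9.92 and 7.73 FPKM in mutants. Every mutant lay above every control, on 370 to 1528 reads per library. Its log2 difference was 0.87 (SE 0.17, 95% interval 0.49 to 1.24), which did not pass the threshold over all genes (adjusted p = 0.0845 with limma). It did pass without control 3 (1.01, adjusted p = 0.0237) and in limma-voom on the recovered reads (1.02, adjusted p = 0.0416). Without any one of the other 5 libraries it did not. After median-of-ratios and quantile scaling the difference was 0.77 and 0.76 (adjusted p of 0.133 and 0.146 with limma). With library sex as a covariate, which sets the mutants against control 3 alone, it was 0.58.

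Gas1, a membrane-anchored co-receptor first known from growth-arrested fibroblasts (chr13:60174405-60177365, minus strand), was at 8.22, 5.20 and 7.52 FPKM in controls and 16.2, 10.4 and 10.2 FPKM in mutants. Here too the groups did not overlap, with mutant 1 highest. The log2 difference was 0.73 (SE 0.21, 95% interval 0.26 to 1.19, adjusted p = 0.205 with limma). Boc, the relative of Cdon, had overlapping groups, with 7.02 ± 0.67 FPKM in controls and 8.13 ± 0.98 in mutants (SD, n = 3 each) and a difference of 0.19 (adjusted p = 0.70). Lrp2 was under the floor.

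Fibroblast markers moved in the same direction as Cdon and Gas1. All 9 had positive log2 differences with a median of 0.91, none was called, and 5 had every mutant above every control, beside 13.0% of all tested genes. Their summed level was 1835 to 7775 FPKM in controls and 6531 to 8908 in mutants, most of it from Col1a1 and Col1a2. The 7 macrophage and leukocyte markers summed to 24.2 to 41.0 FPKM in controls and 64.7 to 106 in mutants. Of these 7, 2 were called higher, beside 0.143% of all tested genes, and 6 had every mutant above every control, beside 13.0%. Control 2 had the lowest fibroblast sum and the lowest Cdon and Gas1. Control 3 had a fibroblast sum of 7775 FPKM, above mutants 2 and 3 (6633 and 6531 FPKM). Its Cdon and Gas1 lay below those of every mutant. The part of these cells in the Cdon and Gas1 values was not tested.

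**Figure D5:**
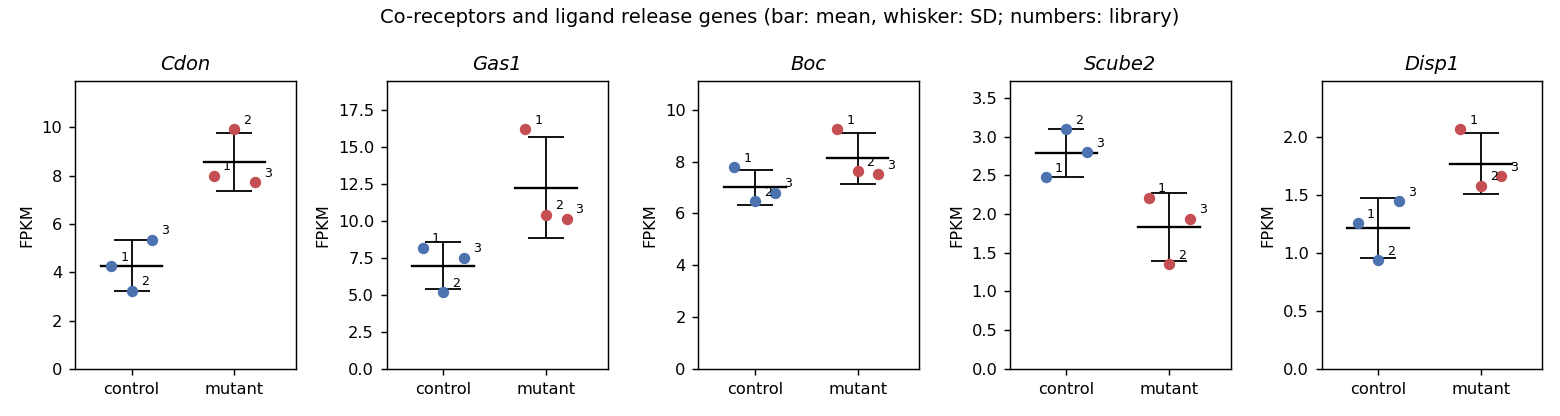
FPKM of 3 co-receptors (Cdon, Gas1, Boc) and 2 ligand release genes (Scube2, Disp1) in each library (y axes start at 0), controls in blue and mutants in red. Bars are means and whiskers SD over 3 mice. For Cdon, Gas1 and Disp1 every mutant lies above every control, and for Scube2 every mutant lies below.

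Among genes for ligands and their release, 5 of 8 were tested and none was called. The other ligands were near or under detection: Ihh had at most 2 reads in any library and Dhh 9 to 29. Scube2, a secreted protein that helps release the lipid-modified ligand, was at 2.47, 3.10 and 2.80 FPKM in controls and 2.21, 1.35 and 1.94 FPKM in mutants, so that every mutant lay below every control. Its difference was -0.43 (SE 0.15, 95% interval -0.76 to -0.10, adjusted p = 0.288 with limma). Disp1, which encodes the membrane transporter that exports the ligand, lay the other way, at 1.26, 0.94 and 1.45 FPKM against 2.07, 1.58 and 1.66 FPKM, with a difference of 0.33 (adjusted p = 0.421). The acyltransferase gene Hhat and Scube3 had differences of 0.19 and 0.12 and overlapping groups.

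The 14 genes of the primary cilium, where Smoothened acts, had a median difference of 0.04, and none was called. Evc and Evc2, which encode partners of Smoothened at the base of the cilium, had separate groups with small differences of 0.30 and 0.17 (adjusted p of 0.471 and 0.683 with limma). In these 2 of the 14 every mutant lay above every control, beside 13.0% of all tested genes. Evc had 3.12 ± 0.56 FPKM in controls against 4.05 ± 0.44 in mutants (SD, n = 3 each). The transport gene Ift88 had the most negative difference of this list, -0.19, with overlapping groups. Of 10 tested kinases, adaptors and ligase subunits that process Gli proteins, none was called and the median was -0.04. The smallest p in that list was for Ulk3, a kinase of Gli proteins, with a difference of -0.18 (adjusted p = 0.642), and Adrbk1 (now Grk2), Btrc and Gsk3b had differences of 0.21, 0.15 and -0.10.

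Of 7 tested genes known as Hedgehog targets in some tissues, none was called, and the median difference was 0.12. Bcl2, an inhibitor of cell death, was at 3.12, 2.25 and 2.33 FPKM in controls and at 3.27, 3.31 and 3.31 FPKM in mutants, so the groups separated while control 1 stood close to the mutants (difference 0.28, adjusted p = 0.468 with limma). The cyclin gene Ccnd1 was at 30.2 ± 5.12 and 38.5 ± 4.44 FPKM (SD, n = 3 each; difference 0.35, adjusted p = 0.531). Sox9, a transcription factor of the follicle's outer sheath and stem cells, and Foxe1 had differences of -0.15 and 0.20. Foxf1 and Foxf2 had at most 5 reads in any library. Proliferation markers, which also mark growing follicles, summed to 123 to 167 FPKM in controls and 132 to 163 in mutants, with the highest sum in control 1 and the lowest in control 2. Hair matrix markers had another order, with 4820, 4829 and 4850 FPKM in controls 1 to 3 and the lowest sum, 2768 FPKM, in mutant 2. The part of either list in the values of the members was not tested.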

How the data were processed

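RNA from the dermis of 6 mice was sequenced in paired ends from strand-marking TruSeq libraries of total RNA, per the labels' protocols. The table deposited by the authors holds 1 FPKM value per gene and library. Per the submitters' processing notes, GSNAP, HTSeq and mm10 were used, and versions and annotation are not given in the sources here. Each library is labelled as its own mouse. In the main fit, limma drew each gene's variance towards that of genes of like level (5.44 prior degrees of freedom). The spread behind each limma p-value, SE and interval is therefore not that gene's spread between mice alone.

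Values were compared as log2(FPKM + 1), a scale that understates the change of low genes, for genes averaging 1 FPKM or more, using limma 3.58.1 in R 4.3.3 with an intensity trend, two-sided, with Benjamini-Hochberg adjustment over 12560 genes and a threshold of 0.05. No covariate or block was used. Tested on simulated data for this comparison (12560 genes), it called 81.0% of genes changed by 1 and 95.0% of genes changed by 2 on the log2 scale, with 3 false calls. Smaller changes, such as the largest difference of a member (0.29, Smo), were not simulated. Shifts shared by the genes of a library were not simulated either. The whole-read steps of the FPKM values gave reads per gene for 23412 of 23412 genes within a relative tolerance of 3e-09. They served for depth and for limma-voom as an alternative. Where read numbers share a divisor, this solution is too low. In simulated data 98.2% of 2971 genes with 50 or more reads came back exactly. Locations are from GENCODE M21 (GRCm38) and promoters from RefSeq.

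The members and gene lists were chosen with earlier results of these data known. Named genes were the 8 members, up to 4 genes per pathway list by smallest p, Ctnnb1, and the 3 genes most similar to each of Shh, Ptch1 and Gli1. Hoxb6, the other gene of that rule, had 2.47 ± 1.02 FPKM in controls against 2.21 ± 0.21 in mutants (SD, n = 3 each). Marker lists not described in the report had these summed FPKM ranges in controls and mutants: pericytes and smooth muscle 75.7 to 129 and 108 to 156, endothelium 28.6 to 35.8 and 38.0 to 48.5, adipocytes 330 to 354 and 261 to 502, Schwann cells 20.0 to 38.2 and 26.2 to 37.8, and sebocytes 49.3 to 55.5 and 32.0 to 59.3. One gene of the wider pathway is not reported here and is not in its counts.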

Additional observations from a re-analysis of the deposited data

How the results depend on the processing

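No member was called under any alternative, which were another pseudocount, no filter, a mean FPKM 5 filter, median-of-ratios scaling, quantile normalization, each library left out, the replicate block, library sex as a covariate, and limma-voom on recovered reads. Shh, Ptch1, Smo, Gli1 and Hhip kept positive and Sufu and Gli2 negative differences in every alternative that tested them. Gli3 changed sign with library sex as a covariate (0.023), and without one library it ranged from -0.048 to 0.017. Scaling moved the median of all tested genes from 0.09 to -0.01 (median-of-ratios) and -0.03 (quantile). Among other pathway genes, Scube3 had -0.017 under quantile normalization. Cdon alone was called, making 1 other pathway gene higher in limma-voom and 0 to 1 without one library. Genes called higher numbered 18 in the analysis as reported, 9 with the pseudocount 0.1, 4 with no filter, 32 after quantile normalization, 10 with library sex as a covariate, 67 in limma-voom and 3 to 189 without one library, the extremes without mutant 2 and control 3. Genes called lower numbered 0 in the analysis as reported, 1 with library sex as a covariate and 0 to 4 without one library. The replicate block gave 67 higher and 1 lower, and no member was called with the block. Same-numbered libraries did not deviate together (r of 0.00159, 0.0367 and -0.0819), while differently numbered ones had r from -0.273 to 0.284. With 3 libraries per group, such values cannot settle whether the numbers pair the mice. The cause of these changes in the counts was not tested. Depth limits Shh most, with 58 reads in control 2.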
